A study of Mus musculus with 8 samples.

Results

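Heat shock proteins and their J-protein partners were examined in mouse calf muscle after feeding with ursolic acid, a triterpenoid of apple peel. The set holds every gene that an array row carries as its sole symbol and whose name starts with Hspa, Hspb, Hspd, Hspe, Hsph, Hsp90 or Dnaj, or is Hsf1, Hsf2 or one of Bag1 to Bag6. This gave 65 genes on 66 rows, of 14860 genes with such a row and 16755 rows in all. No row carried Hspa1b, Hspa8, Hsp90ab1, Hspd1, Hspe1, Hspb1, Dnajb6 or Hsf1 as its sole symbol, so the 65 genes leave them out. The rule itself uses gene names and no expression value, apart from the brighter row standing for Dnajc2, which had 2 rows, but it was chosen with earlier results of these data known. The name rule takes in Hspbap1, a protein that binds a small heat shock protein and is no chaperone itself, and Hspb11, which is a subunit of the intraflagellar transport machinery.

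The ursolic acid group was fed standard chow with 0.27% ursolic acid for 5 weeks, and the control group ate the same chow without it. All animals were male C57BL/6 mice with an age of 12 weeks in the labels. Each sample was gastrocnemius RNA pooled from 2 mice, and 4 samples per group were hybridised to 1-colour arrays. Nothing in the labels says whether a mouse entered more than 1 pool, so p-values measure the spread between these pools. Samples were grouped by title. A further label, the free-text description, gives the opposite treatment for 4 of the 8 samples: ursolic acid samples 1 and 3 and control samples 2 and 4. Control sample 1 had a mean rank correlation of 0.977 with the other arrays, where the other 7 arrays had 0.983 to 0.986. Array medians lay between 5.55 and 5.61 on the log2 scale. The 11 measured fast-fibre and sarcomere markers averaged 11.63 to 11.77 in ursolic acid arrays and 11.69 to 11.73 in control arrays, far above the array medians, as for the labelled tissue.

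Chaperones bind unfolded stretches of other proteins and hold, fold or hand them on. Hsp70 proteins do this in cycles of ATP hydrolysis that J proteins start and exchange factors such as the Bag and Hsp110 proteins end, while small heat shock proteins hold unfolding clients without ATP. The heat shock factor Hsf1 switches on many of these genes by binding inverted repeats of short GAA units, the heat shock element. In muscle, chaperones guard the sarcomere, whose filaments are strained with each contraction, and Bag3 with Hspb8 directs damaged filament proteins to autophagy.

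The 65 genes showed no common direction. Their differences, ursolic acid minus control, were above 0 in 34 genes and below 0 in 31, and their median was 0.002 on the log2 scale, against -0.011 over all rows. By limma, 0 of the 65 genes passed an adjusted p of 0.05, as did 0 of the 16755 rows (0%), and the smallest adjusted p among the genes was 0.188. At an unadjusted p of 0.05, limma gave 5 genes of the 65. Of these 3 were higher with ursolic acid, Hspb8, Hsph1 and Dnajc18, or 4.62% of the family beside 4.08% of all rows. The other 2, Hspa1a and Bag2, were lower, or 3.08% beside 3.00% of all rows. These shares lie near the background. All 4 ursolic acid arrays lay above all 4 control arrays in 4 genes, those 3 and Hspa4, or 6.15% of the family beside 2.66% of all rows, and below them in 2 genes, Hspa1a and Bag2, or 3.08% beside 1.83%. The median size of a difference was 0.074 among the chaperone genes and 0.070 over all rows.

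**Figure D1:**
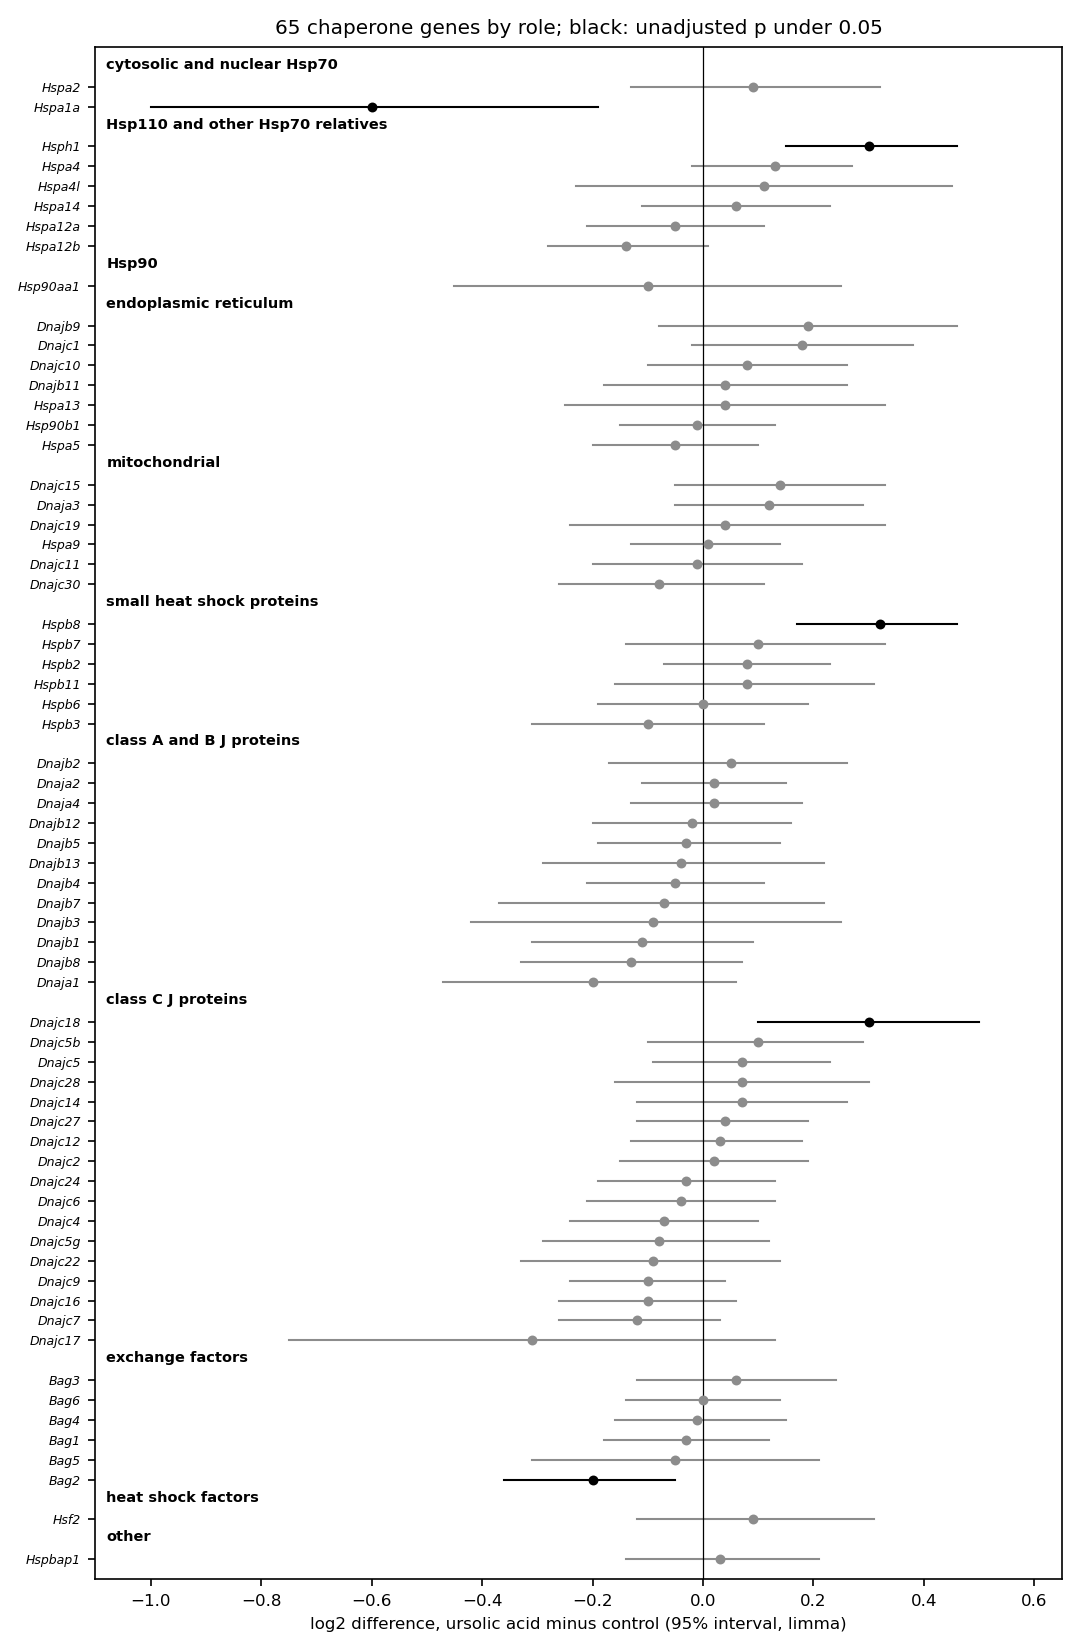
Log2 differences, ursolic acid minus control, of the 65 genes grouped by role, with 95% limma intervals (4 arrays per group). Genes in black have an unadjusted p under 0.05: Hspa1a and Bag2 lie left of 0, and Hsph1, Hspb8 and Dnajc18 lie right of it.

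Hspb8, the small heat shock protein that works with Bag3, had the smallest p of the family. It read 10.03, 9.92, 9.95 and 10.06 in ursolic acid samples 1 to 4, against 9.65, 9.66, 9.61 and 9.77 in control samples 1 to 4. Every ursolic acid array was above every control array. The mean was 9.99 ± 0.06 with ursolic acid and 9.67 ± 0.07 in control (SD, n = 4 each), a 1.25-fold difference of 0.32 ± 0.07 (SE) on the log2 scale (limma adjusted p = 0.188). In the 4 arrays whose title and description name the same treatment the Hspb8 difference was 0.36 (adjusted p = 0.461). With the description as a covariate it was 0.32 (adjusted p = 0.190). Where rows with a mean below 8 were left out, which lowers the number of rows tested from 16755 to 1396, Hspb8 passed limma's test with an adjusted p of 0.0185.

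Hsph1, an Hsp110 protein that exchanges the nucleotide of Hsp70 and helps to dissolve aggregates, also stood higher in each ursolic acid array. Its values were 8.60, 8.66, 8.46 and 8.49 in ursolic acid arrays, against 8.27, 8.25, 8.15 and 8.32 in control arrays. The difference was 0.30 ± 0.07 (SE), or 1.23-fold, with a limma adjusted p of 0.249, and of 0.0344 where rows below 8 were left out. It was 0.36 in the arrays with concordant labels and 0.31 without control sample 1. Hspa4, the constitutive Hsp110 relative, read 8.56, 8.65, 8.65 and 8.60 in ursolic acid arrays, against 8.37, 8.55, 8.48 and 8.55 in control arrays. Its groups were also apart, but the gap between the lowest ursolic acid array and the highest control array was narrow and the difference was 0.13 ± 0.07 (limma adjusted p = 0.749). Hspa4l, the testis-rich paralog, overlapped widely, with 5.92 to 6.50 with ursolic acid and 5.72 to 6.30 in control.

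Hspa1a, the classic heat-inducible Hsp70, went the other way. It read 5.41, 5.68, 5.74 and 5.79 in ursolic acid samples 1 to 4, against 6.61, 5.87, 6.61 and 5.92 in control samples 1 to 4. All ursolic acid arrays were below all control arrays. Control samples 2 and 4, both described as treated, lay just above the ursolic acid range, while control samples 1 and 3 lay far above it. Ursolic acid samples 1 and 3, both described as untreated, read 5.41 and 5.74, also far below control samples 1 and 3. The mean was 5.66 ± 0.17 with ursolic acid and 6.25 ± 0.42 in control (SD, n = 4 each), a difference of -0.60 ± 0.18 (SE) or 0.661 of the control level (limma adjusted p = 0.452). It was -0.88 ± 0.10 in the arrays with concordant labels, with 2 arrays per group (adjusted p = 0.461), and -0.48 ± 0.18 without control sample 1 (adjusted p = 0.627). A second row, which lists both Hspa1l and Hspa1a and so was not counted in the family, gave no such difference. That row read 7.07, 7.07, 7.32 and 7.11 in ursolic acid arrays, against 7.23, 7.08, 7.26 and 7.14 in control arrays, with a difference of -0.03 ± 0.08. Hspa1a has a near-identical neighbour, Hspa1b, and the sources used here do not give which of them the probes of either row detect. Hspa2, the testis-rich Hsp70, had a difference of 0.09 ± 0.10, with 5.67 to 6.13 with ursolic acid and 5.65 to 5.90 in control.

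**Figure D2:**
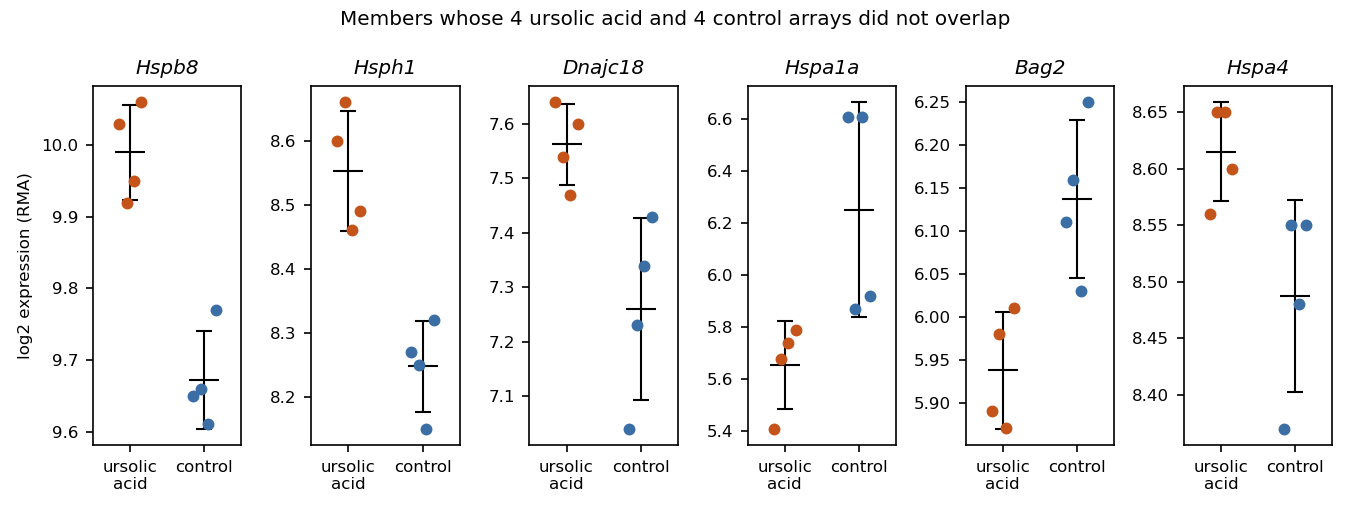
Log2 expression of the 6 genes whose ursolic acid arrays (left, orange) and control arrays (right, blue) did not overlap, each on its own axis, which does not start at 0. Points are arrays and bars are the mean ± SD of 4: Hspb8, Hsph1, Dnajc18 and Hspa4 are higher with ursolic acid, and Hspa1a and Bag2 lower, with 2 of the 4 Hspa1a controls at 6.61.

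Dnajc18 encodes a J protein of the endoplasmic reticulum membrane, and is counted here with class C. Its values were 7.64, 7.54, 7.47 and 7.60 in ursolic acid arrays, against 7.04, 7.23, 7.34 and 7.43 in control arrays. The groups were apart by little, and control sample 1 was the lowest array. The difference was 0.30 ± 0.09 (SE; limma adjusted p = 0.440) and 0.23 ± 0.08 without control sample 1. Bag2, an exchange factor that restrains the ubiquitin ligase Stub1, read 5.89, 5.98, 5.87 and 6.01 in ursolic acid arrays, against 6.11, 6.16, 6.03 and 6.25 in control arrays. All its ursolic acid arrays were lower, with a difference of -0.20 ± 0.07 (limma adjusted p = 0.570). In the arrays with concordant labels the Bag2 difference was -0.08 ± 0.10. When each array was centred on its median, Hspb8, Hsph1 and Hspa1a still had groups apart, while Dnajc18, Hspa4 and Bag2 overlapped.

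The promoters of these genes were searched for the heat shock element as 2 facing units, GAANNTTC or TTCNNGAA, in windows from 250 bases before to 50 bases after an annotated start (RefSeq, GRCm38.p6). Each motif is its own reverse complement, so 1 pass covers both strands, and the 2 motifs overlap where 3 units follow each other. The table held 68 promoters of 52 of the 65 genes. Of these promoters 13, or 19.1%, carried at least 1 motif, beside 15.1% of the 32851 promoters in the whole table. The 13 belonged to 12 of the 52 genes, beside 4587 of 27025 genes with a match in the whole table. These 12 include 3 of the 5 genes with groups apart that have a promoter there: Hspa1a, Hsph1 and Hspb8. Those 5 were picked by their values. Bag2 and Hspa4 had no match in these windows. A run of 3 units was found in both Hsph1 promoters and in no other promoter of the family, and in 0.603% of all promoters.

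The stretches below show the match, in capitals, in the upstream sequence of Hspa1a and Hsph1 and around the start of Hspb8, the genes above with a match, and in Dnaja1 and Dnaja4, J proteins that have matches but overlapped between groups. Each is written 5′ to 3′ on the strand of the gene. Hspa1a lies at chr17:34972207-34972306 on the minus strand, and its match begins 104 bases before the start. Hsph1 lies at chr5:149636316-149636415 on the minus strand, with the match beginning 54 bases before the downstream one of its 2 starts; its run of 3 units lies after the start and is not shown. Hspb8 lies at chr5:116422847-116422876 on the minus strand and spans the start. Dnaja1 lies at chr4:40722298-40722397 and Dnaja4 at chr9:54699429-54699528, both on the plus strand, with matches beginning 124 bases, and 90 and 52 bases, before the start.
Hspa1a: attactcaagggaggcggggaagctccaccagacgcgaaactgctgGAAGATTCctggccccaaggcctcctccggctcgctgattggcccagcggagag
Hsph1: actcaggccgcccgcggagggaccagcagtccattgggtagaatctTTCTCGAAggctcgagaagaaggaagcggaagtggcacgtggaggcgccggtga
Hspb8: cccagaagccaggaGAAGTTTCtaggctcg
Dnaja1: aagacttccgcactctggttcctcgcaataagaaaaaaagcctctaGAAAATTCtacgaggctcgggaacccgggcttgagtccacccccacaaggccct
Dnaja4: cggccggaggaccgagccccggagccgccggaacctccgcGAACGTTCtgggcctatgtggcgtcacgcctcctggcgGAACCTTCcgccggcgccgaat
The genes shown had differences of both signs: -0.60 for Hspa1a and -0.20 for Dnaja1, 0.32 for Hspb8 and 0.30 for Hsph1, and 0.02 for Dnaja4. All the other genes with a match overlapped between groups, with differences from -0.10 (Hspb3) to 0.08 (Dnajc10). Matching letters describe the sequence and do not show that a factor binds there.

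**Figure D3:**
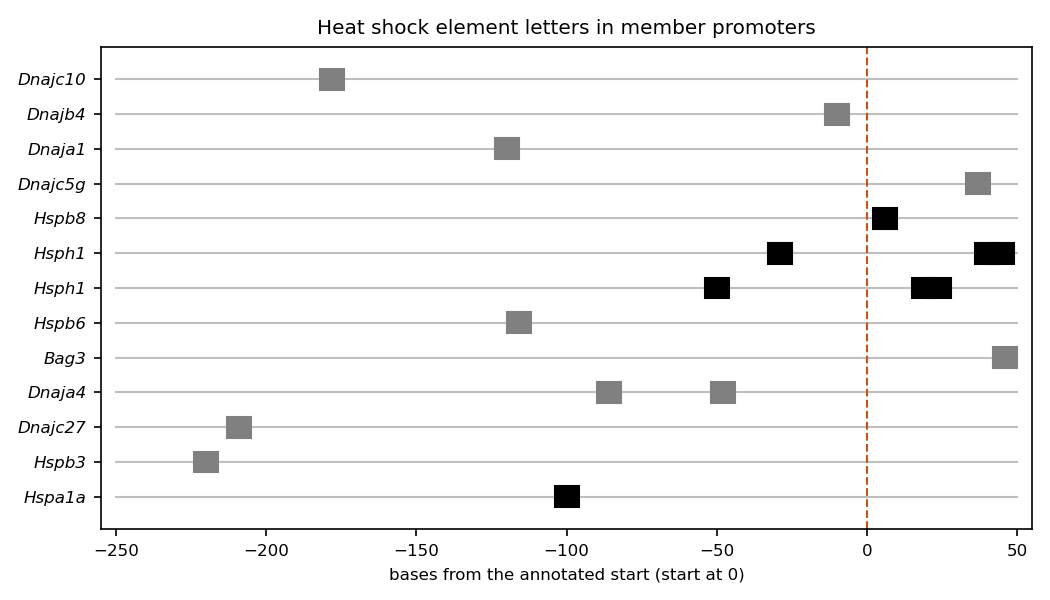
Positions of the 8-base heat shock element matches (blocks) in the 13 chaperone promoters that hold one, in bases from the annotated start (dashed line, at 0). Black blocks belong to genes with an unadjusted p under 0.05, namely Hspb8, Hsph1 (2 promoters) and Hspa1a, and grey blocks to the other genes.

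The other named chaperones of the cytosol overlapped between groups, known heat-inducible ones among them. Dnajb1, the main J protein partner of inducible Hsp70, read 5.56, 5.35, 5.39 and 5.27 in ursolic acid arrays, against 5.70, 5.41, 5.46 and 5.43 in control arrays, a difference of -0.11 ± 0.09 (SE; limma adjusted p = 0.860). Dnaja1, a J protein of the cytosol, had 7.90, 8.32, 7.82 and 7.85 in the ursolic acid arrays and 8.34, 8.08, 8.05 and 8.24 in the control arrays. Here 3 ursolic acid arrays lay below every control array, and ursolic acid sample 2 lay among the controls. The Dnaja1 difference was -0.20 ± 0.12 (adjusted p = 0.791) and -0.32 without ursolic acid sample 2. Bag3, the partner of Hspb8, read 8.67, 8.53, 8.65 and 8.65 in the ursolic acid arrays and 8.76, 8.56, 8.43 and 8.51 in the control arrays. The groups overlapped, and the Bag3 difference of 0.06 ± 0.08 had a 95% interval of -0.12 to 0.24. Dnajb4 and Dnaja4, J proteins of the cytosol, had differences of -0.05 ± 0.07 and 0.02 ± 0.07. Hsf2, a heat shock factor active in development, had 6.73 to 7.06 with ursolic acid and 6.62 to 6.93 in control, a difference of 0.09 ± 0.10. Hsp90aa1, the inducible cytosolic Hsp90, had 2.37, 3.07, 3.17 and 2.86 in the ursolic acid arrays and 3.07, 3.02, 3.00 and 2.79 in the control arrays. That row lies in the lowest 1.67% of rows by mean value, and no detection call was used here. Its difference was -0.10 ± 0.16 (adjusted p = 0.939).

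The remaining small heat shock proteins include several that muscle and heart are rich in. Hspb6, an actin-associated member, read 10.23, 10.07, 10.24 and 10.12 in ursolic acid arrays, against 10.36, 10.15, 10.13 and 10.02 in control arrays. The 2 groups covered almost the same range, and the difference was 0.00 ± 0.08 with a 95% interval of -0.19 to 0.19. Hspb7, which binds filamins, read 7.71, 7.67, 8.07 and 7.92 in the ursolic acid arrays and 7.90, 7.68, 7.81 and 7.60 in the control arrays, with a difference of 0.10 ± 0.11. Hspb2, which forms a complex with Hspb3 in muscle, spanned 9.24 to 9.46 with ursolic acid and 9.24 to 9.34 in control. Hspb3 spanned 7.40 to 7.77 with ursolic acid and 7.55 to 7.85 in control. Of the 6 genes in this group 5 had differences above 0, with a median of 0.08, and Hspb8 was the one with an unadjusted p under 0.05. These counts include Hspb11, the intraflagellar transport subunit, at 0.08.

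The 7 genes counted here as chaperones of the endoplasmic reticulum and the 6 counted as mitochondrial overlapped between groups, and none had an unadjusted p under 0.05. Dnajc18, described above with groups apart, sits in the endoplasmic reticulum membrane too but was counted with class C. Hspa5, the Hsp70 of the endoplasmic reticulum known as BiP, read 8.98, 9.05, 9.07 and 9.12 in ursolic acid arrays, against 9.23, 9.10, 9.07 and 9.03 in control arrays, a difference of -0.05 ± 0.07 (SE). Hsp90b1, the Hsp90 of that compartment, read 9.92, 10.00, 10.04 and 10.08 in the ursolic acid arrays and 10.05, 10.03, 9.94 and 10.06 in the control arrays. Its difference was -0.01 ± 0.06, with a 95% interval of -0.15 to 0.13. Of these 7 genes 5 had differences above 0, from -0.05 to 0.19. The J proteins Dnajb9 and Dnajc1 had the widest, 0.19 ± 0.12 and 0.18 ± 0.09, and were chosen for mention after their values were seen. Hspa9, the mitochondrial Hsp70 that pulls proteins through the import channel, read 9.64, 9.64, 9.75 and 9.67 in the ursolic acid arrays and 9.63, 9.71, 9.62 and 9.72 in the control arrays. The Hspa9 difference was 0.01 ± 0.06 with a 95% interval of -0.13 to 0.14. Dnaja3, Dnajc11, Dnajc15, Dnajc19 and Dnajc30, the other mitochondrial members, had differences of -0.08 to 0.14.

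The J proteins not counted in these 2 groups, some of which, such as Dnajc18, also sit in the endoplasmic reticulum, form the rest of the J proteins. Of 12 in classes A and B, 9 had differences below 0 and 3 above, from -0.20 (Dnaja1) to 0.05, with a median of -0.05. Dnajb3, Dnajb7, Dnajb8 and Dnajb13, known from testis and cilia, had values of 2.89 to 5.62. Of 17 in class C, 8 had differences above 0 and 9 below, from -0.31 to 0.30, and Dnajc18 alone had an unadjusted p under 0.05. Dnajc17, a J protein of the spliceosome mentioned for its spread, had the largest pooled within-group SD of the family, 0.34. It read 5.49, 6.05, 6.23 and 5.31 in ursolic acid arrays, against 5.87, 6.03, 6.07 and 6.36 in control arrays, and the groups overlapped, with a difference of -0.31 ± 0.20. Dnajc5, the synaptic vesicle chaperone, and Dnajc6, which uncoats clathrin vesicles, had differences of 0.07 and -0.04. Besides Bag2, the Bag genes had differences of -0.05 to 0.06. Bag1, an exchange factor that also binds the cell death inhibitor Bcl2, read 8.84, 8.70, 8.93 and 8.83 in the ursolic acid arrays and 8.86, 8.82, 8.87 and 8.86 in the control arrays, with a difference of -0.03 ± 0.07.

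The precision is what 4 pools per group allow. The within-group SD had a median of 0.11 over the 65 genes, and ran from 0.04 to 0.34. The 95% interval of a difference reached a median of 0.18 to either side, from 0.13 to 0.44. In 32 of the 65 genes the interval lay within a 1.2-fold change in either direction, a bound set after the values were seen, as it did in 7549 of all 16755 rows.

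**Figure D4:**
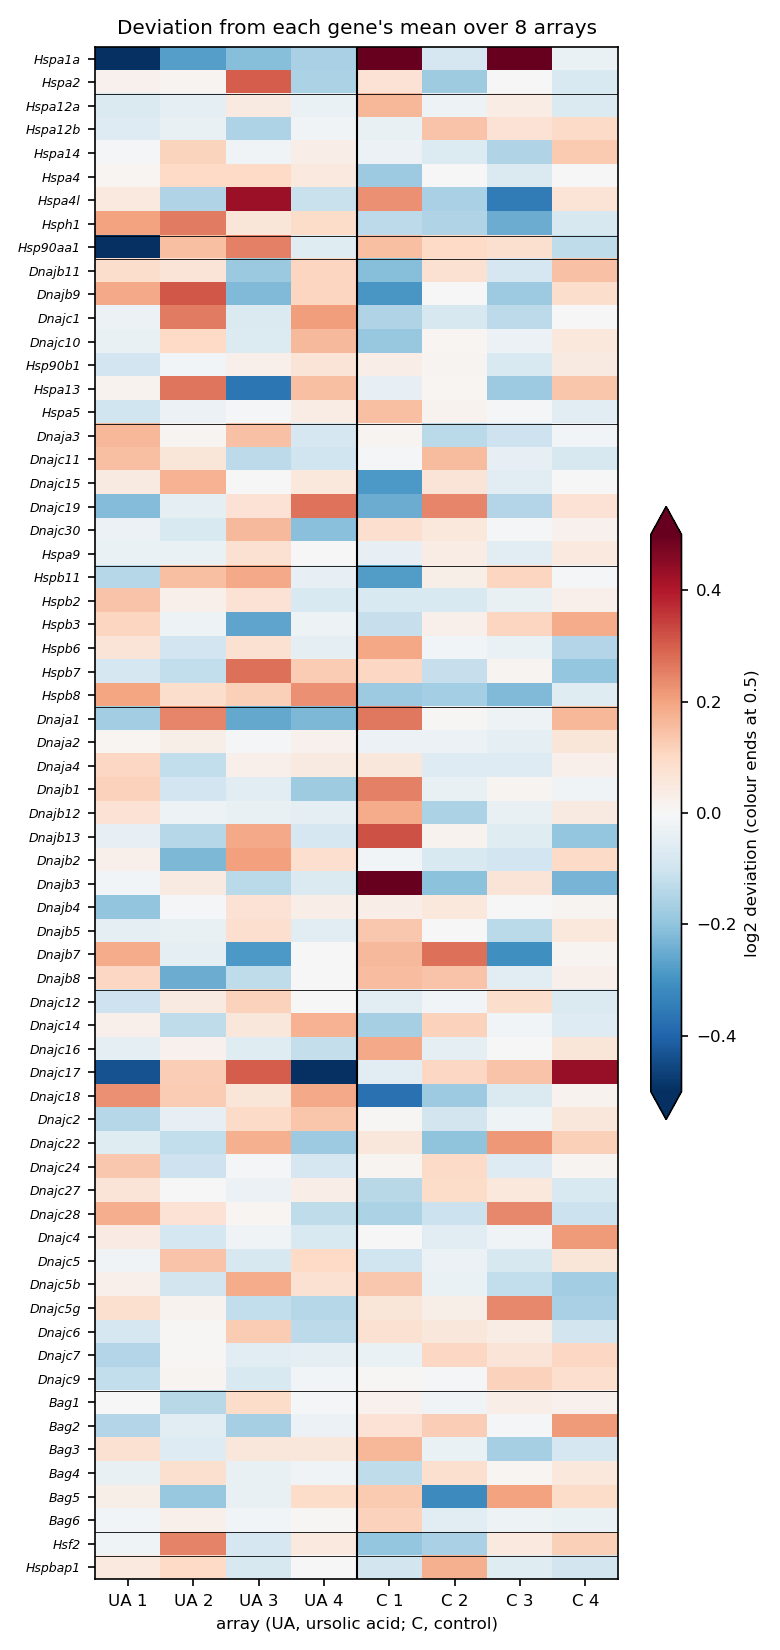
Deviation of each of the 65 genes from its own mean over the 8 arrays, on the log2 scale, with ursolic acid arrays (UA) left of control arrays (C) and genes in order of role. Hspa1a, in the top row, is high in control samples 1 and 3, and Hspb8 and Hsph1 are above their means in the 4 ursolic acid arrays and below them in the 4 control arrays.

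The description label was also used in place of the title, since the labels conflict. In both groups samples 2 and 4 are described as treated and samples 1 and 3 as untreated. A difference by description therefore cannot be told apart from one by sample number. Grouping all 8 arrays by the description gave 7 genes of the family higher in arrays described as treated at an unadjusted limma p of 0.05, or 10.8% beside 5.14% of all rows. It gave 2 genes lower, Hspa2 and Hspb6, or 3.08% beside 7.38% of all rows. Of the 7, 5 belong to the 7 genes of the endoplasmic reticulum: Hspa13, Dnajb11, Dnajc10, Dnajc1 and Dnajb9. The others were Dnajc19 and Dnajc5, and all these were named after their values were seen. Dnajc10, a J protein that reduces disulfide bonds, read 7.23 to 7.38 in the 4 arrays described as treated, against 7.03 to 7.19 in the 4 described as untreated, with no overlap and a difference of 0.17 ± 0.06 (adjusted p = 0.368). Hspa13, an Hsp70 of the microsomes, read 6.14 to 6.40 in arrays described as treated and 5.77 to 6.15 in those described as untreated, a difference of 0.28 ± 0.09 (limma adjusted p = 0.353). By the description, Hspb8 and Hsph1 had differences of 0.04 ± 0.12 and 0.06 ± 0.12, and Hspa1a one of -0.28 ± 0.25. No gene of the family passed an adjusted p of 0.05 in this grouping.

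The genes whose array pattern was most like that of Hspa1a were Tmem145, Asb6, Homer2, Hdac6 and Bach1. Likeness was Pearson's correlation of the deviations from the group means over the 8 arrays, which was 0.972 to 0.992 for these 5, the highest of all named rows. Picked as the highest of 14860 genes over only 8 arrays, such values do not show a link with Hspa1a, and none was tested. Tmem145 read 5.30 to 5.42 in ursolic acid arrays, against 5.57, 5.35, 5.57 and 5.35 in control arrays, so control samples 1 and 3 stood out in it as in Hspa1a. None of the 5 had an unadjusted p under 0.05 between the groups. Within the family the nearest was Hspa12a, a distant Hsp70 relative, at 0.793.

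Partners of the family that carry other names had small differences on the median. Of 21 measured chaperones and co-chaperones of the cytosol, 15 had differences above 0, and the median was 0.08. Over all rows 45.5% of differences were above 0. Ahsa2, a relative of the Hsp90 activator Ahsa1, had an unadjusted p under 0.05. It read 8.77, 8.67, 8.65 and 8.64 in ursolic acid arrays, against 8.50, 8.51, 8.46 and 8.52 in control arrays, with groups apart and a difference of 0.18 (limma adjusted p = 0.528). Smyd1, which serves myosin folding, had a difference of 0.12, with groups narrowly apart (8.49 to 8.63 with ursolic acid, 8.40 to 8.47 in control). Stip1, which links Hsp70 to Hsp90, had a difference of 0.16 and overlapped. Of 12 genes of the chaperonin TRiC and prefoldin 10 had differences above 0, with a median of 0.02. Among those 10, Cct5, Cct8, Pfdn1, Pfdn2 and Cct7 were at only 0.00 to 0.02. The 3 with the smallest p were Cct2, Cct3 and Vbp1, at 0.09, 0.09 and 0.13. Of 20 genes of the endoplasmic reticulum and its unfolded protein response 14 had differences above 0, with a median of 0.03, led by Atf4, a stress transcription factor, at 0.15, then Sil1 at 0.12 and Pdia3 at 0.13. Of 11 mitochondrial chaperones and proteases 8 had differences above 0, with a median of 0.05, led by Grpel2, Lonp1 and Htra2 at 0.19, 0.11 and 0.13. Among 7 autophagy partners of Bag3, 5 had differences above 0, but 3 of those, Des, Map1lc3a and Gabarapl1, were at 0.00 or 0.01, and the median was 0.00. Sqstm1, the autophagy receptor p62, had a difference of 0.12, with groups apart (8.95 to 9.02 with ursolic acid, 8.83 to 8.91 in control). Map1lc3b and Vps18 overlapped, with differences of -0.13 and -0.11. In these 4 lists after the cytosolic one, no gene had an unadjusted p under 0.05.

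Markers of other cell types were compared in the same fit. All 14 measured markers of macrophages and leukocytes were higher with ursolic acid, 11 of them at an unadjusted limma p of 0.05, and the median was 0.32. Their mean level was 6.03 to 6.20 in ursolic acid arrays and 5.66 to 5.87 in control arrays. The 7 markers of fibroblasts and matrix were also all higher, 2 of them, Lum and Postn, at an unadjusted p of 0.05, with a median of 0.13 and a mean level of 7.39 to 7.84 with ursolic acid and 7.38 to 7.50 in control. The part of these cells in the values of Hspb8, Hsph1 and Dnajc18 was not tested, and in bulk tissue more cells of a type and more RNA per cell cannot be told apart. Markers of endothelium, adipocytes and T and B cells had medians of -0.09, 0.00 and 0.08, with no gene at an unadjusted p under 0.05. Slow-fibre markers had a median of -0.15 over 4 genes and varied widely among arrays, with mean levels of 8.92 to 9.72 with ursolic acid and 8.99 to 9.66 in control. Their low arrays were samples 1 and 4 of the ursolic acid group and sample 4 of the control group.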

How the data were processed

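The values are log2 expression per array row as deposited, made by the authors with RMA (background correction, normalization between arrays, probe summary). RMA and the build mm9 are credited to the submitters' processing notes; the sources do not give the software, its version or any row filter, and base 2 was inferred from the range of values. Of 16755 rows, 14996 carry 1 symbol in the platform annotation, 1019 several and 740 none. All 65 genes matched the RefSeq table (GRCm38.p6).

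Each row was fitted in limma 3.58.1 (R 4.3.3; lmFit, eBayes) on 4 arrays a group without covariates, and two-sided p-values were adjusted by Benjamini-Hochberg over all rows. The fit was tested on simulated data. The number of arrays limits the precision.

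The members and lists were chosen with earlier results of these data known. The naming rule took 19 members, those with an unadjusted p under 0.05 or groups apart and those on a fixed list; other members, such as Dnajc10 and Hspa13, were named after their values were seen. Hspa1b, Hspa8, Hsp90ab1, Hspd1, Hspe1, Hspb1, Dnajb6 and Hsf1, on the fixed list, had no row as sole symbol and were not analysed here. Protein sequences were not analysed either. The alternatives changed scaling, row filter, moderation, array weights, blocks, arrays left out and sample labels.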

Additional observations from a re-analysis of the deposited data

Results flagged for a closer look

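Dnaja1 in the ursolic acid group had 1 array far from the others. Ursolic acid sample 2 read 8.32, against 7.82 to 7.90 in the other ursolic acid samples, and its gap to the nearest of them was 0.845 of the group's range, above Dixon's 95% critical value. The Dnaja1 difference was -0.20 with all arrays and -0.32 without that sample (limma adjusted p = 0.421). In all, 38 sets of 4 were checked and 1 stood out this way; chance gives about 1 in 20.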

How the results depend on the processing

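Of 370 values of the 19 named genes under 20 alternatives, 334 kept direction and side of the threshold, 34 changed sign and 2 passed the threshold: with rows below 8 left out, Hspb8 (0.32, adjusted p = 0.0185) and Hsph1 (0.30, 0.0344), where fewer rows were tested. Grouped by title, Hspb8 lay at 0.29 to 0.36 and Hspa1a at -0.88 to -0.48. Rows with a limma adjusted p under 0.05, 0 with all rows, numbered 27 without rows below the median row, 13 without rows below 8, 12 with a variance trend and robust moderation, 1 without moderation, 23 with array weights, and 0 with any array left out. The filters test fewer rows, and unadjusted limma p-values also moved: without rows below 8, those of Hspa4 and Dnajc7 fell under 0.05. The cause of these counts was not tested for any setting. Family genes higher at an unadjusted p under 0.05 (3) numbered 6 in concordant arrays, 7 by description and 3 to 5 with an array left out (5 without ursolic acid sample 3). Lower ones (2) numbered 4 with quantile normalization, 4 without moderation and 4 with array weights. With an array left out they numbered 2 to 4 (4 without control sample 1). Leaving out rows below 8 kept 19 genes of the family, without Hspa1a, Bag2 and Dnajc18. There 1 gene was lower, Dnajc7, and the 3 higher were Hspa4, Hspb8 and Hsph1. Genes with groups apart and higher (4) numbered 2 after centring, 16 in concordant arrays, 1 by description and 4 to 7 with an array left out (7 without control sample 4). Those lower (2) numbered 1 after centring, 15 in concordant arrays and 0 by description. They numbered 2 to 6 with an array left out (6 without ursolic acid sample 2, 4 without control sample 1). Without rows below 8 they numbered 0, as that filter removed both Hspa1a and Bag2. The concordant arrays are 2 per group, and groups of 2 fall apart more readily than groups of 4. Among these alternatives, shares over all rows were taken only for the unadjusted p counts by description, given above. The median difference was 0.019 after centring, 0.025 without rows below the median row, -0.016 in concordant arrays, 0.020 by description and -0.009 to 0.017 with an array left out. Signs turned after centring for Hsp90b1 (0.01), with quantile normalization for Hspa9 (-0.01), Hspb6 (-0.02) and Dnaja4 (-0.01), and with array weights for Hspa9 (-0.0031). In concordant arrays they turned for Hsp90b1 (0.04), Hspb6 (-0.15), Hspb7 (-0.06), Dnaja4 (-0.04) and Bag3 (-0.002). By description they turned for Hsp90aa1 (0.03), Hsp90b1 (0.05), Hspb6 (-0.15), Hspb7 (-0.15), Dnaja1 (0.10), Dnaja4 (-0.06), Dnajb4 (0.05), Bag2 (0.12) and Bag3 (-0.06). With an array left out, ranges crossing 0 were Hsp90aa1 -0.20 to 0.06, Hsp90b1 -0.03 to 0.02, Hspa9 -0.02 to 0.02, Hspb6 -0.05 to 0.07, Dnaja4 -0.01 to 0.07, Dnajb4 -0.09 to 0.0045 and Bag1 -0.07 to 0.01. Others kept their sign but moved by over 1.5 times: Hsf2 0.03 (without ursolic acid sample 2) to 0.15 (without control sample 4), Dnajb1 -0.16 to -0.04 (without control sample 1), Bag3 0.02 (without control sample 3) to 0.12 (without control sample 1), Hspb7 0.02 (without ursolic acid sample 3) to 0.15 and Hspa5 -0.08 to -0.01 (without control sample 1). Dnaja1 did so too, at -0.32 (without ursolic acid sample 2) to -0.15. Same-numbered samples had deviations correlated at 0.018 to 0.186, and differently numbered ones at -0.210 to 0.198. Whether the numbers pair the samples was not settled. With the replicate block, 0 rows passed, 4 family genes were higher at an unadjusted p under 0.05 (Dnajc1 added) and 2 lower.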
